A study of Homo sapiens with 4 samples.

Results

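The mRNAs of 10 genes of the circadian clock were examined in 786-O, a human line of clear cell renal carcinoma in which VHL is not functional, without and with VHL put back. The genes are BHLHE40, BHLHE41, CLOCK, PER1, PER2, PER3, CRY1, CRY2, NR1D2 and NFIL3, chosen by name from the 12912 genes of the deposited count table. The table carried 9 of them under their own symbol. PER1 was found by its Ensembl identifier, ENSG00000179094.16, which the table lists under the clone name AC129492.1. All 10 had enough counts to be tested.

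A pair of sublines of this line was compared, with 2 RNA-seq libraries each. The 786-O-Ctrl subline is VHL-null. The 786-O-VHL subline expresses HA-tagged wild-type VHL from a retroviral vector, so it is a stable overexpressing population and not a corrected locus. The sample titles of both carry the tag TR, which the paper uses for a triple reporter of GFP, luciferase and thymidine kinase. The paper's account of the RNA sequencing names the sublines without this tag. Its methods give serum-containing RPMI1640 as the medium. The labels and the methods name neither synchronization of the cells nor the hour of harvest, so the phase of any rhythm at the time of harvest is unknown and cannot be told apart from the effect of the subline.

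The clock is a transcriptional feedback loop that runs in most cells. CLOCK, or its relative NPAS2, pairs with BMAL1 (ARNTL) and activates genes with an E-box, the sequence CACGTG. Among these genes are the PER and CRY repressors, which close the loop by inhibiting CLOCK and BMAL1, the REV-ERB nuclear receptors NR1D1 and NR1D2, which repress ARNTL, and the D-box activators DBP, TEF and HLF, which NFIL3 opposes at the same sites. BHLHE40 and BHLHE41 (DEC1 and DEC2) are E-box repressors of the loop and are also known as target genes of the hypoxia-inducible factors (HIF), the transcription factors that VHL marks for destruction.

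Promoter sequences are shown for the 4 member genes with an E-box close to an annotated start, since this is the element that CLOCK, BHLHE40 and BHLHE41 share. Each window runs from 250 bases before to 50 bases after a RefSeq transcript start, written 5′ to 3′ on the strand of the gene. The sequences are RefSeq's for GRCh38.p14 and were located on GRCh37, the build of the alignments, by exact match. Capitals mark the E-box CACGTG and the HIF core sequences ACGTG and GCGTG on either strand.
BHLHE40: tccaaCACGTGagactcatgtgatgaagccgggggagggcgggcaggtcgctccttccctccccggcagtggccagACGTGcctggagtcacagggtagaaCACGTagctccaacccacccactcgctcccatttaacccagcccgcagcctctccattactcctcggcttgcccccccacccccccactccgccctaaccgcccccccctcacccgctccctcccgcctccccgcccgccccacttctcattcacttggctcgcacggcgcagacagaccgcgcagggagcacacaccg
BHLHE41: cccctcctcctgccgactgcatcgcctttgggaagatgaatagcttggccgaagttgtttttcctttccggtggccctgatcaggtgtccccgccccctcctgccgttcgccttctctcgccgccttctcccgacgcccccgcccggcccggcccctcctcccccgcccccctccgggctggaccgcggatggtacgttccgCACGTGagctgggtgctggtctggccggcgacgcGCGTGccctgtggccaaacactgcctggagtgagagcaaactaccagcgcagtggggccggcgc
PER1: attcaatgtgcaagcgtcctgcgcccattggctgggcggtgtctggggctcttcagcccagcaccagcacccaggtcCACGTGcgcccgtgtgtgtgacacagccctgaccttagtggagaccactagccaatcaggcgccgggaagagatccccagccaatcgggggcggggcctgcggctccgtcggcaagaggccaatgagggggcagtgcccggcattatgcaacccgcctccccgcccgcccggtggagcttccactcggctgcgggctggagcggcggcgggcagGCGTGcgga
NR1D2: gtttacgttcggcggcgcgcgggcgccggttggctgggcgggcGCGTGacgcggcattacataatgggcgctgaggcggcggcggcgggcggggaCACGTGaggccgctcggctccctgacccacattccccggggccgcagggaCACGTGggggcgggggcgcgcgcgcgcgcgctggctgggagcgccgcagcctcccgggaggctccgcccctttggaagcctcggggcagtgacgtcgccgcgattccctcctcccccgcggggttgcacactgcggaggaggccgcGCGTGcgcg
The windows are chr3:5020872-5021171 (plus strand) for BHLHE40, chr12:26277921-26278220 (minus strand) for BHLHE41, chr17:8055673-8055972 (minus strand) for PER1 and chr3:23987362-23987661 (plus strand) for NR1D2, where it is the second of the windows listed for the gene. Counted from the transcript start, the E-box begins at position -245 in BHLHE40, at position -48 in BHLHE41, at position -173 in PER1 and at positions -155 and -105 in NR1D2.

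Over the 15 windows that RefSeq lists for the 10 genes, CACGTG was present in 4 windows, against 7.26% of all 35116 windows. The core ACGTG, which every E-box contains on both strands, was present in 9 windows of 8 genes, against 21.4% of all windows. GCGTG was present in 9 windows of 7 genes, against 36.5%, and the windows of PER3 overlap and hold the same GCGTG sites. The REV-ERB hexamer AGGTCA was found in 4 windows of PER1, CRY2 and NFIL3, against 13.8%. The D-box TTANNTAA was found in windows of PER2, PER3 and NR1D2, 3 in all, against 5.63%. The cAMP response element TGACGTCA was found in 0 of the 15, against 1.85%, and its core TGACG in 8, against 24.6%. All motifs were searched on both strands. The member windows held between 46.3% and 83.0% G and C, and the shares over all windows are not matched for base composition. A match describes letters only and is not evidence of binding.

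The libraries held 22141263 counts (the deeper 786-O-Ctrl library), 15714166 (the shallower one), 2807779 (786-O-VHL replicate 1) and 16114120 (786-O-VHL replicate 2). Both 786-O-Ctrl columns carry the same replicate number and are therefore named by depth. Levels are given as CPM, the count of a gene per 1000000 counts of its library after TMM scaling, which corrects for differences in RNA composition, and a count of 0 would allow up to 1.02 CPM in 786-O-VHL replicate 1 and at most 0.199 CPM in the other libraries, for counting error only. VHL itself was at 42.9 and 43.9 CPM in 786-O-Ctrl and at 178 and 163 CPM in 786-O-VHL, which fits the labels but does not separate the vector from the endogenous gene. Markers were called by the test given below, under which 32.6% of all genes tested were higher, 31.9% lower and 64.5% either. All 12 markers of renal carcinoma epithelium were tested, of which 2 were higher and 6 lower in 786-O-VHL. Counts of so few markers, at such shares, describe these genes only. Of 8 markers of other cells, 4 had a row, with a summed level of 13.6 to 14.2 CPM in 786-O-Ctrl and 21.0 to 24.1 CPM in 786-O-VHL, and EPCAM and PDGFRB were higher there among the 3 tested. EPCAM is an epithelial gene and so does not tell other cells from a carcinoma line. PTPRC, CD3E, CD68 and VWF, which mark leukocytes and endothelium, had no row, and the part of other cells in the results was not tested.

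Of the 10 genes, 8 were higher and 1 was lower in 786-O-VHL, at a false discovery rate (FDR) under 0.05 by edgeR's quasi-likelihood test with Benjamini-Hochberg adjustment over 12335 genes. Among all genes tested, 64.5% passed, 32.6% as higher and 31.9% as lower, or 4017 and 3939 genes, against 5077 and 3097 with scaling by library totals alone, under which the members' calls stood at 8 higher and 1 lower as well. All 3 PER genes, both CRY genes, NR1D2, NFIL3 and BHLHE40 were higher, CLOCK was lower, and BHLHE41 was not called. In 8 of the genes both 786-O-VHL libraries were above both 786-O-Ctrl libraries, which held for 40.8% of all genes, and in CLOCK both were below, which held for 39.2%. The median log2 fold change of the 10 genes, 786-O-VHL over 786-O-Ctrl, was 0.71, beside 0.02 over all genes tested. The count of higher genes was 7 with DESeq2 and from 6 to 8 when 1 library was left out. Such a fit has 1 library in one group, so its spread comes from the other group alone, and the single library is assumed to vary like it. With 2 libraries a group the p-values rest on the spread between these libraries. For each gene that spread is drawn largely from all genes tested (prior degrees of freedom 25.5), and less from its own libraries. The sources do not say that the libraries came from separate cultures.

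**Figure D1:**
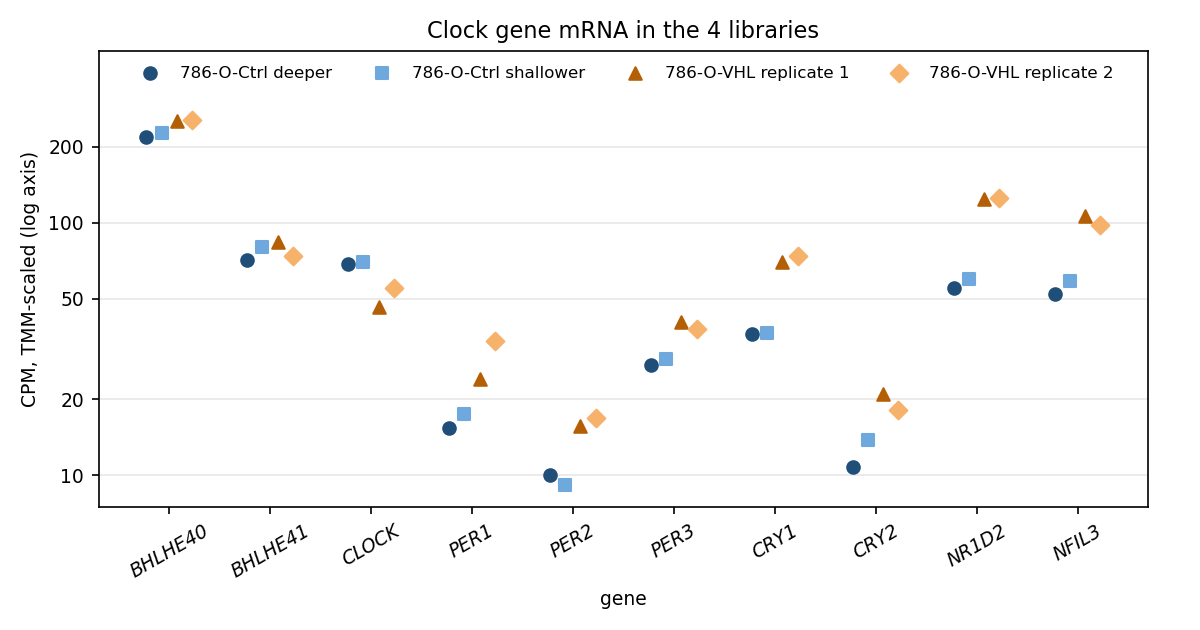
Level of each of the 10 clock genes (x axis) in each of the 4 libraries, in TMM-scaled CPM on a log axis, with 1 point per library. The 786-O-VHL points (triangles and diamonds) lie above both 786-O-Ctrl points for 8 genes and below them for CLOCK. For BHLHE41 replicate 1 lies above both and replicate 2 between them.

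Neither BHLHE40 nor BHLHE41, the members known as HIF targets, was lower with VHL restoration at this threshold. The paper states that 786-O lacks HIF1α expression, and it reports that VHL restoration diminished HIF2α. On the paper's account, the HIF that VHL acts on in this line is therefore HIF2α. HIF protein was not measured in the data used here. BHLHE40 (ENSG00000134107.4, GRCh37 chr3:5021122-5027008, plus strand) was at 218 and 227 CPM in 786-O-Ctrl and at 253 and 256 CPM in 786-O-VHL. The groups did not overlap, and the difference was small. Its mean went from 222 ± 6.59 to 254 ± 2.07 CPM (SD, n = 2 each), with a fitted log2 fold change of 0.20 ± 0.0627 (standard error, SE, edgeR FDR = 0.00772), and 74.4% of all genes tested had a larger absolute change. The call was lost with DESeq2 (adjusted p = 0.0681) and without either 786-O-Ctrl library, at an edgeR FDR of 0.228 without the deeper and 0.0842 without the shallower one. An antisense gene, BHLHE40-AS1, shares 451 exonic bases with BHLHE40, and the strand setting of the counting is not given in the sources used here.

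BHLHE41 (ENSG00000123095.6, GRCh37 chr12:26272963-26277970, minus strand) was at 71.2 and 80.2 CPM in 786-O-Ctrl and at 84.1 and 73.6 CPM in 786-O-VHL. The libraries of the groups were interleaved. The log2 fold change was 0.02, with a 95% interval from -0.14 to 0.18 (edgeR FDR = 0.847), and its sign turned when the deeper 786-O-Ctrl library (-0.057) or 786-O-VHL replicate 1 (-0.03) was left out. Opposite to it lies SSPN, which shares 162 exonic bases with it and had 105, 73, 41 and 195 counts in the 4 libraries. The lower end of the interval, -0.14, is the largest fall of BHLHE41 mRNA that it contains.

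A list of 18 other HIF target genes, not divided into those of HIF1α and of HIF2α, was counted for comparison. It was chosen with earlier results of these data known. The paper had already named some of its genes, SLC2A1, LDHA and IGFBP3 among them, as lowered by VHL in this experiment. Of these, 14 were lower (31.9% of all genes were), 0 were higher and 4 were not called, with a median log2 fold change of -0.94 and a range from -4.36 to 0.89. The largest falls were those of EGLN3, a HIF prolyl hydroxylase, of the carbonic anhydrase CA12 and of the glycolytic regulator PFKFB4, with log2 fold changes of -4.36 ± 0.116 (SE, edgeR FDR = 7.33e-22), -2.91 ± 0.0972 (SE, edgeR FDR = 5.94e-20) and -2.10 ± 0.133 (SE, edgeR FDR = 7.47e-14). EGLN3 was at 101 and 108 CPM in 786-O-Ctrl and at 5.77 and 4.93 CPM in 786-O-VHL. The 4 genes not called, named after their values had been seen, were CA9 (-1.21) and ANKRD37 (0.89), both with 25 counts or fewer in every library, EGLN1 (-0.06) and VEGFA (-0.08). Whether BHLHE40 and BHLHE41 differ from the list was not tested.

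CLOCK, the activator of the loop, was the only member that fell. Its mRNA (ENSG00000134852.15, GRCh37 chr4:56294070-56413076, minus strand) was at 68.8 and 69.7 CPM in 786-O-Ctrl and at 46.5 and 55.0 CPM in 786-O-VHL. Both 786-O-VHL libraries were lower, and they differed from each other by more than the 786-O-Ctrl libraries did. The mean went from 69.2 ± 0.675 to 50.7 ± 6.02 CPM (SD, n = 2 each), and the fitted log2 fold change, which weights the libraries by their depth, was -0.39 ± 0.0792 (SE, edgeR FDR = 0.000109). Of all genes tested, 53.8% had a larger absolute change than CLOCK, and 25.5% had a lower log2 fold change. CLOCK was lower under all 10 alternatives tried, between -0.58 and -0.25. On the opposite strand, TMEM165 shares 76 exonic bases with CLOCK. TMEM165 had 3615 and 2501 counts in the deeper and shallower 786-O-Ctrl libraries and 305 and 1928 in 786-O-VHL replicates 1 and 2. Its part in the CLOCK counts was not tested.

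The partners and relatives of CLOCK went different ways. ARNTL (BMAL1), named here with NPAS2 for its role after the values had been seen, was at 13.3 and 17.6 CPM in 786-O-Ctrl and at 34.3 and 35.6 CPM in 786-O-VHL, with a fitted log2 fold change of 1.21 ± 0.126 (SE, edgeR FDR = 2.33e-09). ARNTL2 (BMAL2), its paralog, was at 127 and 129 CPM in 786-O-Ctrl and at 58.0 and 80.3 CPM in 786-O-VHL, with a fitted log2 fold change of -0.79 ± 0.0829 (SE, edgeR FDR = 2.64e-09). NPAS2, which can take the place of CLOCK, had a log2 fold change of 0.18 with a 95% interval from -0.13 to 0.50 (edgeR FDR = 0.302), and its groups overlapped. Of the activators, CLOCK and ARNTL2 were therefore lower, ARNTL was higher and NPAS2 was not called.

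All 3 PER genes, the repressors that give the loop its delay, were higher in 786-O-VHL. PER1 (GRCh37 chr17:8043790-8059824, minus strand) was at 15.4 and 17.4 CPM in 786-O-Ctrl and at 24.1 and 33.9 CPM in 786-O-VHL. Both 786-O-VHL libraries were higher, and replicate 2 was well above replicate 1. The log2 fold change was 0.95 ± 0.128 (SE, edgeR FDR = 2.74e-07). Without 786-O-VHL replicate 2 it was 0.56 (edgeR FDR = 0.0264), and without replicate 1 it was 1.06. Another annotated gene on the same strand, ENSG00000263620, shares 30 exonic bases with PER1.

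PER2 (ENSG00000132326.12, GRCh37 chr2:239152685-239198743, minus strand) was at 10.0 and 9.17 CPM in 786-O-Ctrl and at 15.6 and 16.9 CPM in 786-O-VHL. This is the least abundant member, with 46 counts in 786-O-VHL replicate 1, and its replicates lay close together in both groups. The log2 fold change was 0.78 ± 0.152 (SE, edgeR FDR = 5.98e-05). PER3 (ENSG00000049246.14, GRCh37 chr1:7844351-7905237, plus strand) changed least of the 3. It was at 27.2 and 28.8 CPM in 786-O-Ctrl and at 40.4 and 37.9 CPM in 786-O-VHL, with a fitted log2 fold change of 0.47 ± 0.100 (SE, edgeR FDR = 0.000201). The annotated gene UTS2 on the opposite strand shares 868 exonic bases with PER3 and had no row in the count table.

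The cryptochromes, which bind and inhibit CLOCK and BMAL1 together with the PER proteins, were higher as well. CRY1 (ENSG00000008405.12, GRCh37 chr12:107385142-107487327, minus strand) was at 36.3 and 36.6 CPM in 786-O-Ctrl and at 69.9 and 73.7 CPM in 786-O-VHL. The spread within groups was small beside the difference. The mean rose from 36.4 ± 0.240 to 71.8 ± 2.70 CPM (SD, n = 2 each), and the fitted log2 fold change was 1.00 ± 0.0798 (SE, edgeR FDR = 1.06e-11). CRY2 (ENSG00000121671.11, GRCh37 chr11:45868669-45904799, plus strand) was at 10.7 and 13.8 CPM in 786-O-Ctrl and at 21.0 and 18.2 CPM in 786-O-VHL, with a fitted log2 fold change of 0.64 ± 0.151 (SE, edgeR FDR = 0.000582). Its call was lost without the deeper 786-O-Ctrl library, where the log2 fold change was 0.46 (edgeR FDR = 0.0541).

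NR1D2 (REV-ERB beta), a heme-binding repressor of ARNTL, rose most of the members. Its mRNA (ENSG00000174738.13, GRCh37 chr3:23986777-24022108, plus strand) was at 55.0 and 59.8 CPM in 786-O-Ctrl and at 124 and 126 CPM in 786-O-VHL. The groups were far apart beside the spread within each. The mean rose from 57.4 ± 3.38 to 125 ± 0.821 CPM (SD, n = 2 each), and the fitted log2 fold change was 1.13 ± 0.0701 (SE, edgeR FDR = 4.41e-14), and 14.7% of all genes tested had a larger absolute change. Its paralog NR1D1 (REV-ERB alpha) averaged 20.9 ± 1.62 CPM in 786-O-Ctrl and 69.1 ± 5.68 CPM in 786-O-VHL (SD, n = 2 each), without overlap, with a fitted log2 fold change of 1.77 ± 0.0940 (SE, edgeR FDR = 1.39e-15). REV-ERB mRNA and the mRNA of its target ARNTL were thus all higher in the same libraries.

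NFIL3 (E4BP4), the D-box repressor, was higher in 786-O-VHL. It (ENSG00000165030.4, GRCh37 chr9:94171327-94186114, minus strand) was at 52.1 and 58.6 CPM in 786-O-Ctrl and at 106 and 97.6 CPM in 786-O-VHL. The groups did not overlap. The mean rose from 55.4 ± 4.58 to 102 ± 6.05 CPM (SD, n = 2 each), with a fitted log2 fold change of 0.86 ± 0.0755 (SE, edgeR FDR = 6.97e-11). The D-box activators that NFIL3 opposes were higher too, 3 of 3. HLF was at 0.950 and 0.997 CPM in 786-O-Ctrl and at 11.9 and 9.15 CPM in 786-O-VHL, with a fitted log2 fold change of 3.33 ± 0.286 (SE, edgeR FDR = 4.57e-11). DBP and TEF, named for their role after the values had been seen, had log2 fold changes of 1.67 ± 0.301 (SE, edgeR FDR = 2.18e-05) and 0.76 ± 0.0886 (SE, edgeR FDR = 1.75e-08). DBP had 37 and 23 counts in the deeper and shallower 786-O-Ctrl libraries and 19 and 83 in 786-O-VHL replicates 1 and 2. It shares 661 exonic bases with SPHK2 on the opposite strand.

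**Figure D2:**
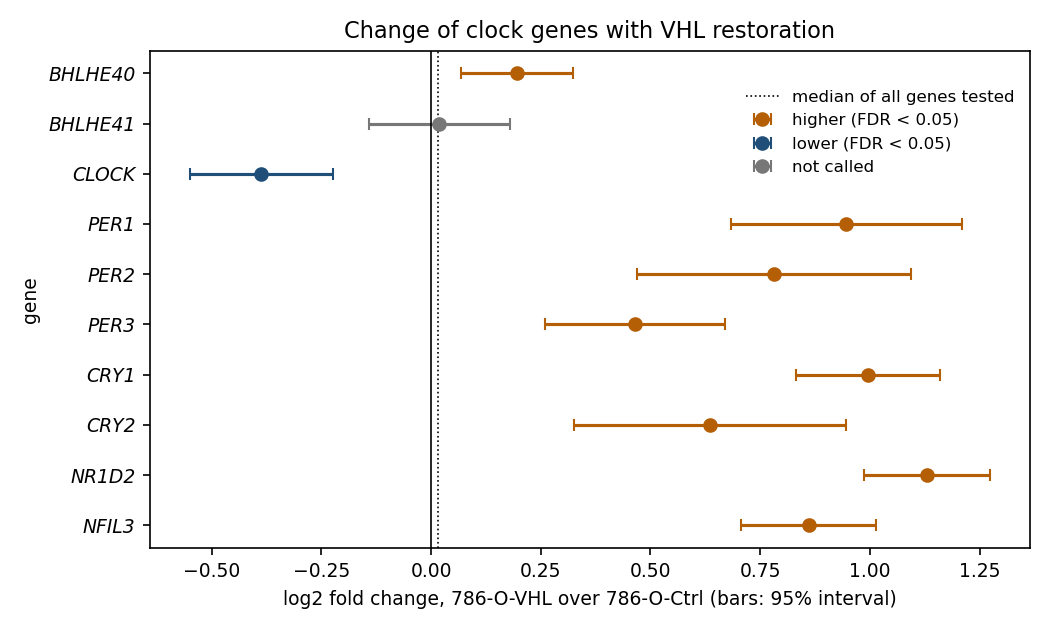
Log2 fold change of each clock gene, 786-O-VHL over 786-O-Ctrl (x axis), with the 95% interval of the edgeR fit as bars and the median of all genes tested as a dotted line. NR1D2 and CRY1 lie highest at 1.13 and 1.00, the interval of BHLHE41 spans 0, and CLOCK alone lies below 0 with its interval.

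The rest of the clock was described with a list of 35 further genes, of which 31 had a row and all of those were tested. Of the 31, 18 were higher, 6 were lower and 7 were not called, at a median log2 change of 0.28, where 32.6% of all genes tested were higher and 31.9% lower. HLF and NR1D1, given above, were among those that rose most. The largest falls were those of TIMELESS, of the PER cofactor SFPQ and of ARNTL2. TIMELESS, which in mammals also serves at the replication fork, went from 80.9 and 80.8 CPM to 30.9 and 26.7 CPM, with a fitted log2 fold change of -1.55 ± 0.0863 (SE, edgeR FDR = 4.12e-15). SFPQ had a log2 fold change of -0.85 ± 0.0625 (SE, edgeR FDR = 1.73e-12). By role, 2 of 2 nuclear receptors were higher, 0 of 2 repressors were higher and 1 lower, 5 of 7 kinases were higher and 0 lower, 1 of 4 genes of the ubiquitin system was higher and 0 lower, 2 of 6 co-regulators were higher and 4 lower, and 4 of 4 output genes were higher. With 64.5% of all genes called in either direction, counts in roles of so few genes describe these genes only.

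Several members are also known to be induced by other signals, PER1 by serum and glucocorticoid among them, and companion lists were counted for these. Of 13 immediate early genes tested, 9 were higher and 2 were lower, beside 32.6% and 31.9% of all genes, and their median log2 fold change was 0.78. Their summed level was 1389 to 1394 CPM in 786-O-Ctrl and 1980 to 2266 CPM in 786-O-VHL. EGR1, ATF3 and MYC rose most, with log2 fold changes of 2.57, 2.09 and 1.41 (edgeR FDR = 4.73e-11, 7.33e-18 and 1.77e-16). EGR2 and FOSL1 were lower, at -1.28 and -0.24 (edgeR FDR = 0.015 and 0.00389). Of 7 glucocorticoid receptor targets tested, 4 were higher and 0 were lower, beside 32.6% and 31.9% of all genes, with a median of 0.75. Counted in either direction, the share called was not above the 64.5% of all genes. GADD45B, KLF9 and TSC22D3 rose most, by 1.69, 1.33 and 1.22 on the log2 scale (edgeR FDR = 2.41e-14, 3.67e-12 and 1.96e-13), while FKBP5, another target named after its value had been seen, had a log2 fold change of -0.10 (edgeR FDR = 0.297). The part of these signals in the changes of the clock genes was not tested.

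**Figure D3:**
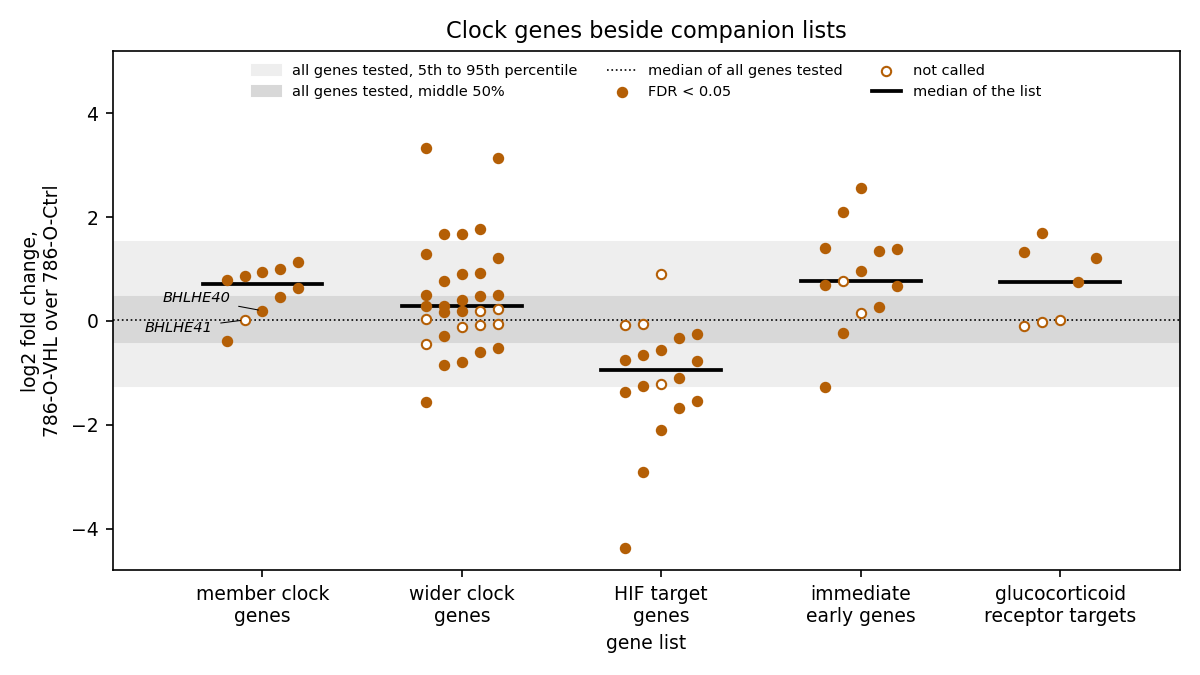
Log2 fold changes (y axis) of the single genes of 5 lists (x axis), filled where the edgeR FDR was under 0.05, with the median of each list as a bar and the spread of all genes tested as grey bands. The clock members center on 0.71 and the HIF targets on -0.94, and BHLHE40 and BHLHE41 lie inside the middle band of all genes.

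Levels of different members can be compared only per length, and CPM was divided by the exon length of each gene in kilobases, taken over all annotated transcripts. In 786-O-Ctrl, BHLHE40 was highest at 63.2 CPM per kb, followed by NFIL3 (26.9), BHLHE41 (19.6), NR1D2 (9.91), CRY1 (7.62), CLOCK (6.004), PER3 (3.44), PER1 (2.34), CRY2 (1.98) and PER2 (1.35). The libraries of neighbors in this order did not overlap except for PER1 and CRY2. In 786-O-VHL, BHLHE40 was again highest at 72.3 CPM per kb, followed by NFIL3 (49.6), NR1D2 (21.6), BHLHE41 (20.5), CRY1 (15.0), PER3 (4.82), CLOCK (4.40), PER1 (4.14), CRY2 (3.16) and PER2 (2.29). There NR1D2 overlapped with BHLHE41, PER3 with CLOCK, and CLOCK with PER1. CLOCK, whose libraries lay above those of PER3 and PER1 in 786-O-Ctrl, was not separated from either in 786-O-VHL.

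Whether paralogs changed alike was examined by their ratio within each library. The mean log2 ratio of BHLHE40 to BHLHE41 was 1.56 in 786-O-Ctrl against 1.69 in 786-O-VHL, that of PER1 to PER2 was 0.77 and 0.82, that of PER2 to PER3 was -1.55 and -1.27, and that of CRY1 to CRY2 was 1.58 and 1.88. The groups overlapped for each pair except PER2 and PER3, whose ratio lay above both 786-O-Ctrl values in each 786-O-VHL library. The difference of these means changed sign for PER1 to PER2 when 1 library was left out, from 0.05 to between -0.15 and 0.24. It stayed positive but moved between 0.12 and 0.47 for CRY1 to CRY2, between 0.17 and 0.38 for PER2 to PER3 and between 0.03 and 0.24 for BHLHE40 to BHLHE41. A two-sided exact permutation test over the 4 libraries gave p = 0.667, 0.667, 0.333 and 0.667, and 0.667 for each after Benjamini-Hochberg adjustment over the 4 pairs. The smallest p this design allows is 0.333, so that it could not show a difference.

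The genes whose profile over the 4 libraries was nearest to that of BHLHE40, by Euclidean distance of centered log2 CPM, were CMTM3 and FAM149B1, at distances of 0.00961 and 0.0138. Those nearest to BHLHE41 were LARP4 and THY1, at 0.0254 and 0.0296. With 4 libraries such profiles are shared widely, as 1603 genes lay within 0.2 of BHLHE40 and 912 within 0.2 of BHLHE41.

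**Figure D4:**
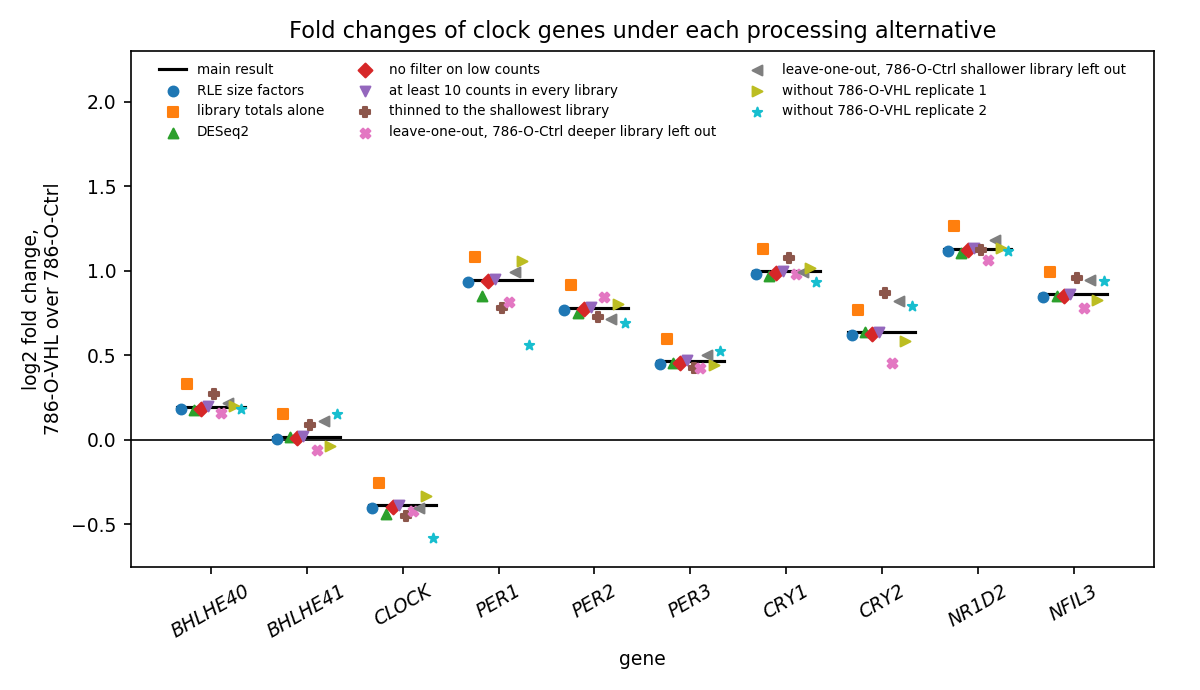
Log2 fold change of each clock gene, 786-O-VHL over 786-O-Ctrl (y axis), in the main result (bar) and under each of 10 processing alternatives (points). PER1 moves most, down to 0.56 without 786-O-VHL replicate 2, and BHLHE41 alone has values on both sides of 0.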

How the data were processed

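Total RNA of both sublines was sequenced, in 2 libraries each. Per the labels and the submitters' processing notes, which name CASAVA and STAR, reads were aligned to hg19, and the authors deposited raw counts per gene without normalization. For the counting tool, its strand setting and its annotation, the entry is "not given in the sources used here". DESeq2 was the test named in the study's methods. Member genes and gene lists were chosen with earlier results of these data known. Symbols were matched first, then Ensembl identifiers (353 of the 12749 identifiers found in GENCODE v44 have another symbol there). Coordinates and exon lengths are from GENCODE v44 lifted to GRCh37.

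Counts were filtered by filterByExpr (minimum count 10, 12335 genes kept), scaled by TMM and tested with edgeR 4.0.16 in R 4.3.3 with the group as the only term. Standard errors are those implied by the F statistic. The biological coefficient of variation was 4.31%. Replicates differed beyond sampling noise (chi-square per degree of freedom 2.26 and 2.82), so each library counts once. The code was tested on simulated data. The alternatives were DESeq2 1.42.0, RLE size factors, library totals, no filter, 10 counts in every library, thinning to the shallowest library and each library left out. All members are named, and of other lists at most 3 genes per direction with the largest change past an FDR of 0.05. The values of 1 gene that this rule names are not reported here. No sequences of proteins were used here.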

Additional observations from a re-analysis of the deposited data

How the results depend on the processing

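Of 100 refits of the member genes (10 genes under 10 alternatives), 94 kept direction and call, 4 lost the call and 2 turned in sign. The losses were those of BHLHE40 with DESeq2 and without either 786-O-Ctrl library and of CRY2 without the deeper one, and the turns were those of BHLHE41, to -0.057 (edgeR FDR = 0.715) without the deeper 786-O-Ctrl library and to -0.03 without 786-O-VHL replicate 1 (edgeR FDR = 0.691). The causes were not tested. With a library left out, the spread rests on the other group alone. Scaling by library totals alone moved the median log2 fold change of all genes from 0.02 to 0.15 and the split of calls from 4017 higher and 3939 lower to 5077 and 3097. The members moved with it, BHLHE40 to 0.33, BHLHE41 to 0.15 and CLOCK to -0.25. The counts of member genes, wider clock genes and all genes called stayed within 1.5 times their values under each alternative. No paired analysis was possible because both 786-O-Ctrl columns carry the same replicate number. The depth of 786-O-VHL replicate 1 limits PER2, CRY2 and PER1, which had 46, 62 and 71 counts there.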
